A study of Mus musculus with 6 samples.

Results

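The C-type lectin genes with a Clec symbol were followed in dendritic cells (DC) sorted from mouse tumors. Members were all genes of the deposited table whose symbol starts with Clec, without Clec9a, which gave 30 of 23224 genes. Bulk RNA sequencing was done on 6 libraries in 3 groups of 2. In all groups, MC57-SIY cells, a mouse fibrosarcoma line carrying the model antigen SIY, had grown under the skin of C57BL/6 mice for 7 days. The groups were sorted CD103+ DC1 from Rag2-/- hosts (replicates 2 and 3), sorted ISG+ DC from Rag2-/- hosts (replicates 2 and 3) and sorted ISG+ DC from WT hosts (replicates 1 and 2). No drug is named for any group, and neither the age of the hosts nor the number of tumors behind a library is stated. Without Rag2, mice form no mature lymphocytes of the T and B lineages and keep innate cells. The labels do not state the gate behind ISG+ DC, a name in which ISG usually stands for interferon-stimulated gene. Replicates are described as independent experiments, whether from separate animals is not said, and with 2 in a group their spread is known poorly.

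C-type lectin receptors are membrane proteins of myeloid and other cells, many of which bind sugars or lipids of microbes and of dying cells. Activating members such as Dectin-1 (Clec7a), Dectin-2 (Clec4n) and Mincle (Clec4e) signal through the kinase Syk and the adaptor Card9. Several of them need the adaptor chain Fcer1g (FcR gamma), and Clec5a needs Tyrobp (DAP12). Inhibitory members carry an ITIM motif that recruits phosphatases, and the Clec2 (Clr) members are ligands of Nkrp1 receptors on NK cells. In mouse tissues many of these receptors mark macrophages, monocytes and CD11b+ DC more than the DC1 lineage.

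Depth lay between 6023510 and 15368616 estimated counts, with the lowest in CD103+ DC1 replicate 3. That library also stood apart over all tested genes. Its Spearman correlations with the ISG+ DC libraries were 0.768 to 0.837 and with CD103+ DC1 replicate 2 0.882, against 0.934 within Rag2-/- ISG+ DC and 0.921 within WT ISG+ DC. CD103+ DC1 replicate 2 was closer to Rag2-/- ISG+ DC replicate 2, at 0.9, than to its own replicate. Rag2 had 39 and 11 counts in CD103+ DC1, 40 and 2 in ISG+ DC labelled Rag2-/- and 0 and 0 in ISG+ DC labelled WT. Hosts are named here as labelled, and what is said of WT against Rag2-/- depends on those labels. DC1 markers such as Xcr1 and Itgae (7 in the list) summed to 4055 to 7384 CPM (counts scaled to a common library size) in CD103+ DC1. They summed to 927 to 1057 CPM in Rag2-/- ISG+ DC and 577 to 579 CPM in WT ISG+ DC. The 5 CD11b+ cDC2 markers found went the other way, with summed levels of 106 to 136 CPM, 2282 to 2696 CPM and 2974 to 3082 CPM.

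Of the 30 members, 17 had enough counts to be tested, 7 had counts too low for a test and 6 were at 0 in all libraries. The silent members were Clec12b, Clec18a, Clec1b, Clec3a, Clec3b and Clec4f. A count of 0 allows a level of up to 0.0418 CPM over the 6 libraries together, taken as 3 counts and covering counting error alone. Among the silent genes, Clec1b encodes the podoplanin receptor of platelets, Clec4f a receptor of Kupffer cells and Clec3b the plasma protein tetranectin. The 10 platelet markers summed to 18.1 to 25.7 CPM in CD103+ DC1, 24.4 to 25.1 CPM in Rag2-/- ISG+ DC and 94.9 to 103 CPM in WT ISG+ DC. Most of the sum in WT ISG+ DC was Pf4, at 61.1 and 90.2 CPM. The low members were Clec11a, Clec14a, Clec2e, Clec2h, Clec2l, Clec4b2 and Clec4g. None of these 7 had a level above 6.43 CPM in any library, which was Clec11a, a secreted growth factor of bone, in WT ISG+ DC replicate 1 (0 in the other 5).

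Both libraries reached 1 CPM for 15 members in each ISG+ DC group and for 8 in CD103+ DC1. The 7 members above that level in every group were Clec10a, Clec12a, Clec16a, Clec2d, Clec4a1, Clec5a and Clec7a. Clec1a reached it in CD103+ DC1 and in 1 library of Rag2-/- ISG+ DC and 1 of WT ISG+ DC. Clec4a4, the DCIR2 receptor, reached it in both libraries of no group. All members together took 0.0386% and 0.0328% of the counts in CD103+ DC1, 0.0969% and 0.116% in Rag2-/- ISG+ DC and 0.185% and 0.196% in WT ISG+ DC. The groups did not overlap in this share, which describes counts and was not tested. The make-up of the Clec counts differed too. Clec2d gave 40% and 46.8% of them in CD103+ DC1 and 10.8% to 11.2% in WT ISG+ DC, whereas Clec7a gave 4.72% and 14.4% in CD103+ DC1 and 34.5% and 34.7% in WT ISG+ DC.

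**Figure D1:**
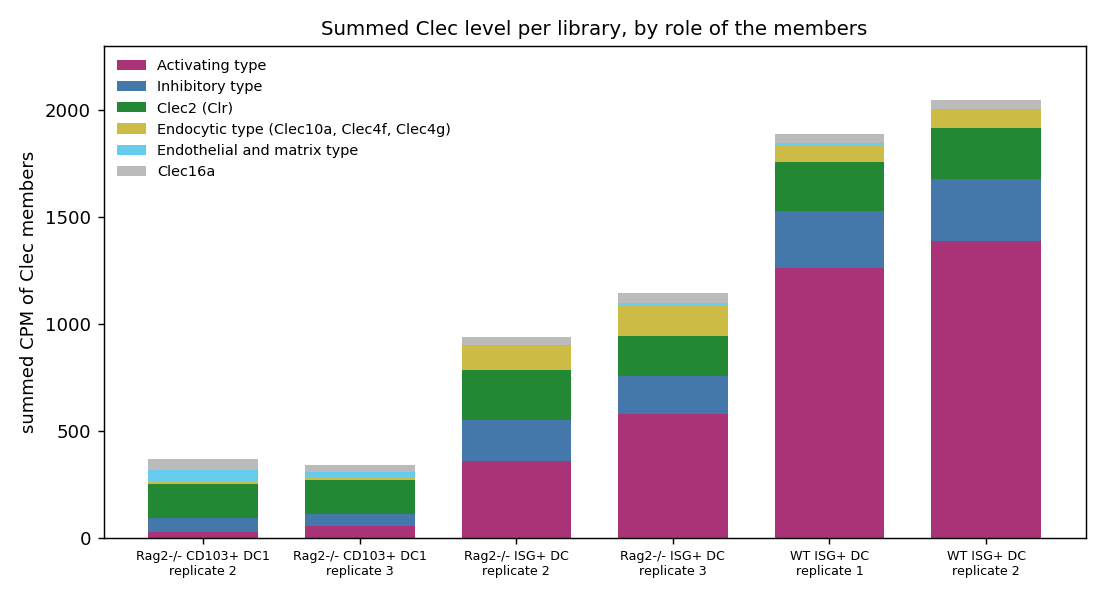
Summed level of the 30 Clec members in each of the 6 libraries, in CPM, stacked by the role lists (bars start at 0, 1 bar per library). The sums were 369 and 338 CPM in CD103+ DC1, 937 and 1143 CPM in Rag2-/- ISG+ DC and 1889 and 2045 CPM in WT ISG+ DC. The 9 genes of the activating list took most of the sum in WT ISG+ DC. They were Clec1b, Clec4a1, Clec4b1, Clec4b2, Clec4d, Clec4e, Clec4n, Clec5a and Clec7a. Of these, Clec4a1 (183 and 203 CPM in WT ISG+ DC) is treated in the text as a DCIR family gene.

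The first comparison asked how Clec expression differs between ISG+ DC and CD103+ DC1 in hosts labelled Rag2-/-. ISG+ DC had higher levels of activating receptors (Clec7a, Clec4n, Clec4e, Clec5a and Clec4b1), of the DCIR family genes Clec4a1 and Clec4a2 and of the galactose-binding receptor Clec10a. By edgeR's quasi-likelihood test with adjustment over all genes, 8 of the 17 tested members rose and 0 fell. Of all 13223 genes tested, 2.83% rose and 0.862% fell. At an unadjusted p under 0.05, 10 members were higher and 1 lower, beside 8.8% and 6.11% of all genes. By DESeq2 8 members rose and 0 fell, where of 13307 genes 695 (5.22%) rose and 414 fell. The median log2 fold change was 3.47 over the tested members and -0.02 over all genes tested. A member can pass the count filter through the group where it is high, so these figures describe the tested members and not the family. In bulk samples, fewer cells of a type and less RNA per cell cannot be told apart.

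Among the activating receptors, Clec7a encodes Dectin-1, the receptor for fungal beta-glucans. Its level was 17.4 and 48.6 CPM in CD103+ DC1 and 145 and 237 CPM in Rag2-/- ISG+ DC. Both ISG+ DC libraries lay above both CD103+ DC1 libraries, a rise of 5.84-fold (log2 fold change 2.54 ± 0.45 SE, edgeR adjusted p = 0.0104). The log2 fold change was 1.96 without CD103+ DC1 replicate 2 and 3.47 without replicate 3. With the 4 compared libraries alone the call was lost (2.53, edgeR adjusted p = 0.05).

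Clec4n encodes Dectin-2, which binds mannose-rich sugars of fungi and pairs with Fcer1g. It was at 1.73 and 0.343 CPM in CD103+ DC1 and at 38.3 and 74.0 CPM in Rag2-/- ISG+ DC. The 2 groups were far apart, at 47.0-fold (log2 fold change 5.56 ± 0.63 SE, edgeR adjusted p = 0.00104). The log2 fold change was 7.31 without CD103+ DC1 replicate 2 and 5.03 without replicate 3. Clec4e encodes Mincle, a receptor for mycobacterial cord factor that also pairs with Fcer1g. Its level was 0.997 and 0.856 CPM in CD103+ DC1 and 15.2 and 25.4 CPM in Rag2-/- ISG+ DC, a rise of 21.4-fold (log2 fold change 4.42 ± 0.55 SE, edgeR adjusted p = 0.00171). With the 4 compared libraries alone it was not called (edgeR adjusted p = 0.0543). Its neighbour Clec4d, which encodes the partner receptor MCL, was low in both groups.

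Clec4d was at 2.19 and 0 CPM in CD103+ DC1 and at 3.78 and 4.89 CPM in Rag2-/- ISG+ DC (edgeR adjusted p = 0.373). This difference did not pass, although the libraries of the groups did not overlap. It did pass without CD103+ DC1 replicate 2, where the remaining CD103+ DC1 library had a count of 0, and with no low-count filter. Clec5a encodes MDL-1, a Tyrobp-linked receptor of myeloid cells that binds dengue virus. It was at 1.60 and 1.54 CPM in CD103+ DC1 and at 31.5 and 96.4 CPM in Rag2-/- ISG+ DC. The ISG+ DC replicates differed from each other, and the rise of 40.4-fold (log2 fold change 5.34 ± 0.63 SE, edgeR adjusted p = 0.00139) came to 5.93 on the log2 scale without ISG+ DC replicate 2 and 4.32 without replicate 3. Clec4b1 encodes DCAR, a further partner of Fcer1g. Its level was 0.465 and 0 CPM in CD103+ DC1 and 17.9 and 19.3 CPM in Rag2-/- ISG+ DC (log2 fold change 6.03 ± 1.40 SE, edgeR adjusted p = 0.0425). It lost its call without ISG+ DC replicate 2, without ISG+ DC replicate 3, with the 4 compared libraries alone and when WT and Rag2-/- ISG+ DC were treated as 1 group. Without CD103+ DC1 replicate 3 its log2 fold change was 5.31. Without replicate 2 the CD103+ DC1 library left was at 0, so the fitted 10.72 is not a measured size.

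The DCIR family genes lie in 1 stretch of mouse chromosome 6, with Clec4b1 between Clec4a4 and Clec4a2. Clec4a2 encodes DCIR1, which carries an ITIM and dampens DC. It was at 2.39 and 0 CPM in CD103+ DC1 and at 49.1 and 60.1 CPM in Rag2-/- ISG+ DC, a rise of 39.0-fold (log2 fold change 5.29 ± 0.91 SE, edgeR adjusted p = 0.00915). The log2 fold change was 4.52 without CD103+ DC1 replicate 3, and without replicate 2 the fitted 12.27 stood against a library at 0. Clec4a1, also named Dcir4, was at 2.99 and 2.40 CPM in CD103+ DC1 and at 107 and 124 CPM in Rag2-/- ISG+ DC. All 4 libraries kept to their side by a wide margin (log2 fold change 5.39 ± 0.37 SE, edgeR adjusted p = 0.000109).

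Clec4a3, or Dcir3, had unequal CD103+ DC1 replicates, at 0.199 and 8.91 CPM, against 71.7 and 61.1 CPM in Rag2-/- ISG+ DC. Its log2 fold change of 3.98 ± 1.07 SE did not pass (edgeR adjusted p = 0.0787). It passed without either CD103+ DC1 replicate, at 2.89 without replicate 2 and 8.33 without replicate 3, and also with the replicate block (5.03) and with no low-count filter (3.99). Clec4a4 was at 0 in both CD103+ DC1 libraries and at 5.6 and 0.0729 CPM in Rag2-/- ISG+ DC, so 1 library carried its level (edgeR adjusted p = 0.419). Against the limit of 3 counts over the CD103+ DC1 group its mean was at least 19.7-fold higher, which does not bound the second ISG+ DC library.

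Since RSEM splits reads that fit several genes, the alike DCIR and DCAR genes were also summed. In GENCODE M21 transcripts matched by symbol, 15.7% of the 50-base stretches of Clec4a4, 8.68% of those of Clec4b1 and 6.15% of those of Clec4a2 also occurred in another member. Clec4a1, Clec4a3 and Clec4b2 shared none. Over all 30 members, 23 shared no such stretch with another member and the other 4 that did were Clec2 genes, at 1.94% to 4.10%. The sum of the 6 Clec4a and Clec4b genes was 6.05 and 11.3 CPM in CD103+ DC1, 253 and 264 CPM in Rag2-/- ISG+ DC and 347 and 372 CPM in WT ISG+ DC. It rose 30.4-fold between the populations (log2 fold change 4.93 ± 0.37 SE, edgeR adjusted p = 0.000152) and did not pass between hosts (log2 fold change 0.48 ± 0.31 SE, edgeR adjusted p = 0.695). The summed value does not depend on how reads were split among the 6 genes. Of the single genes, Clec4a2, Clec4a4 and Clec4b1 have values that are uncertain in this way. Shorter stretches and genes outside the family were not searched.

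Clec10a encodes MGL1 (CD301a), an endocytic receptor for galactose-type sugars. It was at 9.64 and 15.6 CPM in CD103+ DC1, 112 and 143 CPM in Rag2-/- ISG+ DC and 80.4 and 87.3 CPM in WT ISG+ DC. The rise between populations was 10.2-fold (log2 fold change 3.35 ± 0.40 SE, edgeR adjusted p = 0.00143). Among the 17 tested members it was 1 of 3 whose 2 WT libraries lay below both Rag2-/- ISG+ DC libraries. Of all genes tested 23.1% did so, and the Clec10a difference did not pass (edgeR adjusted p = 0.665).

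**Figure D2:**
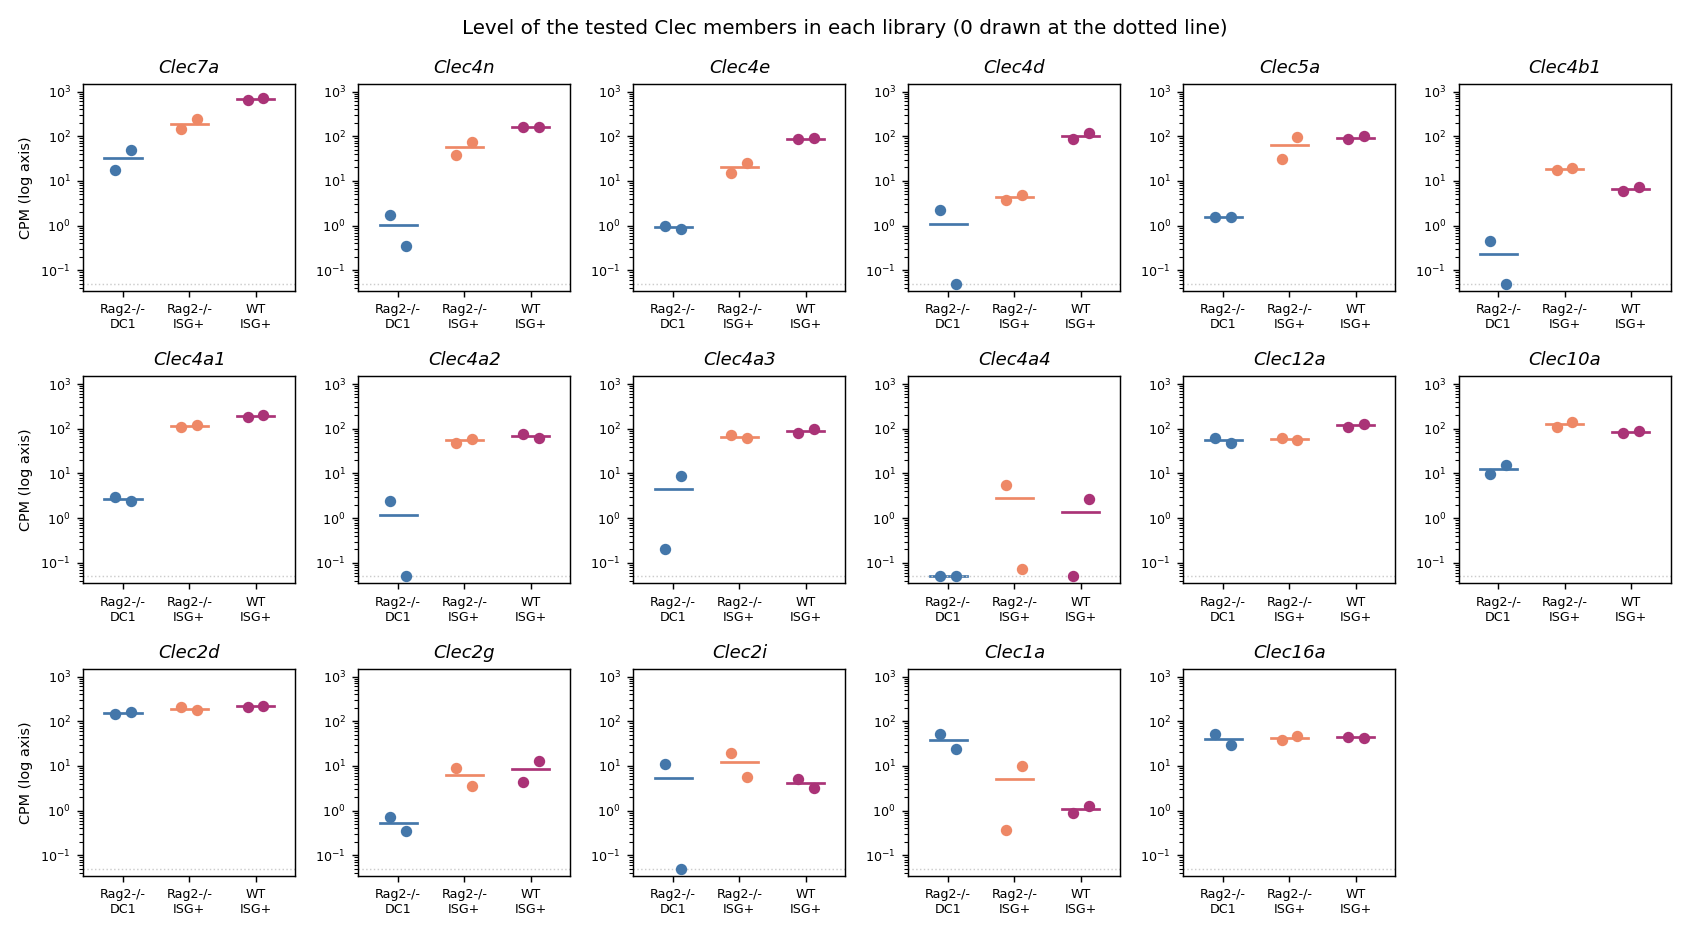
Level of each of the 17 tested members in CPM (log axis) in every library, with points for libraries, bars for group means of 2 and a dotted line where a level of 0 is drawn. Clec12a and Clec16a overlapped between CD103+ DC1 and Rag2-/- ISG+ DC, and Clec2d lay slightly higher in Rag2-/- ISG+ DC without passing. Clec4n ran from 0.343 to 1.73 CPM in CD103+ DC1 and from 38.3 to 74.0 CPM in Rag2-/- ISG+ DC.

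Not all members followed the population. Clec12a encodes MICL, an ITIM receptor for uric acid crystals. It was at 63.2 and 46.8 CPM in CD103+ DC1 and at 63.4 and 54.8 CPM in Rag2-/- ISG+ DC, and the groups overlapped. Its log2 fold change was 0.10 with a 95% interval from -0.64 to 0.85 (edgeR adjusted p = 0.94). Clec16a, an endosomal protein without a known lectin receptor role, was at 52.1 and 29.5 CPM against 38.0 and 46.2 CPM, with an interval from -0.93 to 1.02. Clec2d encodes Clr-b, the ligand of the inhibitory receptor Nkrp1b. Its level was 147 and 158 CPM in CD103+ DC1 and 205 and 177 CPM in Rag2-/- ISG+ DC, with a log2 interval from -0.24 to 0.88 (edgeR adjusted p = 0.636). Both ISG+ DC libraries of Clec2d lay above both CD103+ DC1 libraries, but the difference was small and did not pass.

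The other Clec2 members tested were variable. Clec2g was at 0.731 and 0.343 CPM in CD103+ DC1, 8.94 and 3.50 CPM in Rag2-/- ISG+ DC and 4.38 and 13 CPM in WT ISG+ DC (edgeR adjusted p = 0.308 between populations). Clec2i, which encodes Clr-g, was at 11 and 0 CPM, 19.1 and 5.69 CPM, and 5.18 and 3.19 CPM in these groups (edgeR adjusted p = 0.833 between populations). Replicates of Clec2i overlapped between CD103+ DC1 and Rag2-/- ISG+ DC, and without CD103+ DC1 replicate 2, which leaves a library at 0, it passed (edgeR adjusted p = 0.0272). Klrb1b, the receptor gene for the Clec2d product, was itself at 156 and 118 CPM in CD103+ DC1, 98.8 and 64.5 CPM in Rag2-/- ISG+ DC and 204 and 271 CPM in WT ISG+ DC. It passed in neither comparison (edgeR adjusted p = 0.304 between populations and 0.0698 between hosts).

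Clec1a was the 1 tested member with a fitted level below that of CD103+ DC1. It encodes MelLec, a receptor for fungal melanin known mainly from endothelial cells. Its level was 53.1 and 24.3 CPM in CD103+ DC1, 0.378 and 9.84 CPM in Rag2-/- ISG+ DC and 0.894 and 1.3 CPM in WT ISG+ DC. No ISG+ DC library reached the lower CD103+ DC1 library, but the fitted log2 fold change of -2.92 ± 1.2 SE did not pass (edgeR adjusted p = 0.274). It passed without ISG+ DC replicate 3 (log2 fold change -6.64), with the replicate block (-4.00) and with no low-count filter (-2.93). The 10 endothelial markers summed to 71.6 to 103 CPM in CD103+ DC1, 182 to 219 CPM in Rag2-/- ISG+ DC and 196 to 252 CPM in WT ISG+ DC. Of 8 tested, 0 rose and 0 fell between the populations, where 2.83% and 0.862% of all genes did, so these counts say little. The median log2 fold change of these markers was -0.09, and Kdr was the largest part of the sum in Rag2-/- ISG+ DC (131 and 124 CPM). Their part in the Clec1a values was not tested.

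The count of members that rose moved with the library left out, as did the calls over all genes. Without CD103+ DC1 replicate 2, 11 members and 9.1% of all genes rose, and without replicate 3, 9 members and 4.16%. Without Rag2-/- ISG+ DC replicate 2, 7 members and 2.02% rose, and without replicate 3, 7 members and 1.57%. Macrophage and monocyte markers moved with the same comparison. Of 14 found and tested, 11 rose and 0 fell, beside 2.83% and 0.862% of all genes, and their summed level was 771 to 902 CPM in CD103+ DC1, 3089 to 4759 CPM in Rag2-/- ISG+ DC and 9703 to 9791 CPM in WT ISG+ DC. No macrophage marker of the list was at 0 in the table. The part of these cells in the Clec differences was not tested.

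**Figure D3:**
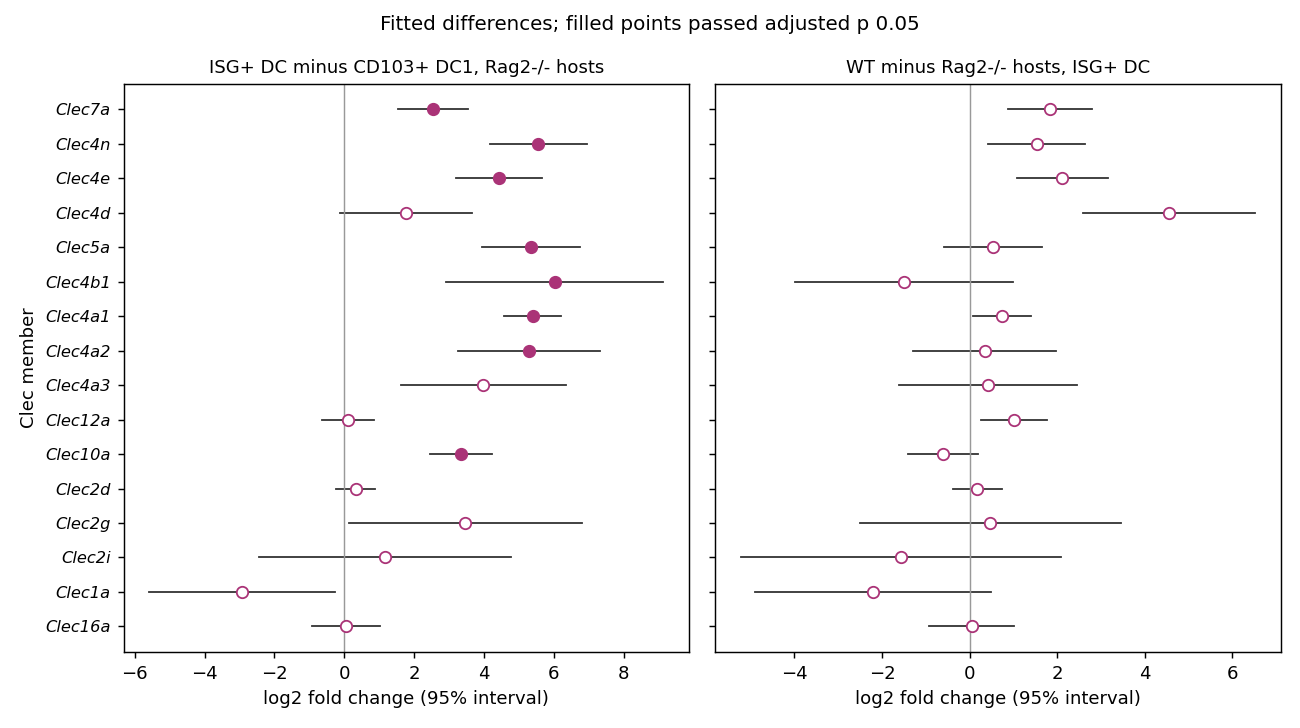
Fitted log2 fold changes with 95% intervals for 16 of the 17 tested members (Clec4a4 is left off, since its CD103+ DC1 libraries are at 0), ISG+ DC minus CD103+ DC1 on the left and WT minus Rag2-/- hosts on the right, with filled points for members that passed. On the left 8 points are filled, and on the right none is, with Clec4d nearest at an edgeR adjusted p of 0.0516.

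The second comparison asked how Clec expression in ISG+ DC differs between hosts labelled WT and Rag2-/-. Clec4d, Clec4e and Clec7a had the smallest p-values, all with higher levels in the WT libraries, but no member passed. By edgeR's quasi-likelihood test with adjustment over all genes, 0 of 17 were higher and 0 lower, where 0.287% and 0.265% of all 13223 genes tested passed. At an unadjusted p under 0.05, 6 members were higher and 0 lower, beside 4.56% and 5.32% of all genes. By DESeq2 3 were higher, beside 2.07% of all genes. Both WT libraries lay above both Rag2-/- libraries for 9 members and below for 3, against 21.4% and 23.1% of all genes tested. The median log2 fold change was 0.42 over the tested members and -0.03 over all genes tested. This comparison shares the Rag2-/- ISG+ DC libraries with the first.

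Clec4d was at 3.78 and 4.89 CPM in Rag2-/- ISG+ DC and at 86.0 and 117 CPM in WT ISG+ DC. The WT libraries stood far above the 4 others, and the fitted difference was 23.5-fold (log2 fold change 4.55 ± 0.88 SE, 95% interval from 2.59 to 6.51). Its edgeR adjusted p of 0.0516 lay just outside the threshold and ran from 1.04e-10 to 0.196 over 11 alternatives, all in the same direction. With 2 libraries in each group, it passed by DESeq2, with no low-count filter, with the replicate block and with the 4 compared libraries alone. It did not pass with the other scalings or with counts not rounded. Replicate 1 occurs in WT alone, so the block's difference between hosts used WT ISG+ DC replicate 2 alone on the WT side.

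Clec4e, the gene beside Clec4d, was at 15.2 and 25.4 CPM in Rag2-/- ISG+ DC and at 87.3 and 89.7 CPM in WT ISG+ DC. Its difference of 4.35-fold (log2 fold change 2.12 ± 0.47 SE, edgeR adjusted p = 0.0818) passed in 3 of 11 alternatives, with an adjusted p from 0.00117 to 0.481. Thus Clec4e differed between the populations in Rag2-/- hosts by a passing test and Clec4d did not. Whether these neighbours differ in their response was not tested.

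The start regions of this pair are shown because these neighbours had the smallest adjusted p-values between hosts. Each run holds 250 bases before and 50 bases after the RefSeq start of the gene in GRCm38.p6, on the strand of the gene, with motif matches in capitals. The window of Clec4d lies at chr6:123261857-123262156 on the plus strand and that of Clec4e at chr6:123289822-123290121 on the minus strand.
Clec4d: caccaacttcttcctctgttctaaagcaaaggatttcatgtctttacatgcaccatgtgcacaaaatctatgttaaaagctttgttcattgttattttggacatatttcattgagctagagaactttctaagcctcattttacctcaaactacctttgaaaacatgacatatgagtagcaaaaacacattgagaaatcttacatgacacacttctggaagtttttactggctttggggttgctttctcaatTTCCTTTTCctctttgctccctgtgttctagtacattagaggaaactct
Clec4e: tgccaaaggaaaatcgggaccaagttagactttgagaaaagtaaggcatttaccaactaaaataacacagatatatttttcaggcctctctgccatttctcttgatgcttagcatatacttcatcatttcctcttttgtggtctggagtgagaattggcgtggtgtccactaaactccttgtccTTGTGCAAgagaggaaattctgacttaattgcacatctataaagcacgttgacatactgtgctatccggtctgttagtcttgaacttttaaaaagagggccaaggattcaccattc
The capitals mark an interferon response element core (GAAANNGAA) just after the start of Clec4d and a C/EBP motif (TTGCNNAA) 66 bases before the start of Clec4e. On both strands of 27025 promoter windows of this length, these motifs occurred in 8.57% and 10.8%. An AP-1 motif (TGANTCA, in 7.93% of windows) and a PU.1 motif (GAGGAAGT, in 3.28%) were searched too. Of the 30 members 24 had a window, 13 of them tested members. Among these 13, the interferon element core was in those of Clec2d, Clec4b1 and Clec4d, the C/EBP motif in those of Clec12a, Clec16a, Clec2i and Clec4e, and the AP-1 motif in those of Clec12a, Clec2g and Clec4a2. The PU.1 letters were in no member's window. A match describes letters and is not a binding site, and neither the interferon core nor the C/EBP motif was shared by the pair.

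Clec7a was at 145 and 237 CPM in Rag2-/- ISG+ DC and at 652 and 709 CPM in WT ISG+ DC. The WT libraries lay above all others, at a fitted 3.57-fold (log2 fold change 1.83 ± 0.43 SE, edgeR adjusted p = 0.0979, from 3.41e-07 to 0.431 over the alternatives), and 4 of 11 alternatives called it. Clec4n was at 38.3 and 74.0 CPM against 164 and 160 CPM (edgeR adjusted p = 0.272), called in 2 of 11 alternatives. Clec12a, alike in both Rag2-/- populations, was at 63.4 and 54.8 CPM against 109 and 130 CPM (log2 fold change 1.02 ± 0.34 SE, edgeR adjusted p = 0.291), and no alternative called it. Clec4a1 was at 107 and 124 CPM against 183 and 203 CPM (edgeR adjusted p = 0.411).

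Clec5a was not separated by host. Its WT libraries, at 85.2 and 99.3 CPM, overlapped Rag2-/- ISG+ DC at 31.5 and 96.4 CPM (log2 interval from -0.59 to 1.65). Clec4a2, at 76.2 and 63.1 CPM in WT, and Clec4a3, at 81.5 and 96.2 CPM, lay slightly above their Rag2-/- libraries, with log2 intervals from -1.28 to 1.98 and from -1.61 to 2.45. Clec4b1 lay below, at 5.99 and 7.19 CPM (log2 fold change -1.49 ± 1.12 SE, edgeR adjusted p = 0.757). Clec2d and Clec16a were nearly level, at 212 and 220 CPM and at 45.0 and 42.3 CPM, with log2 intervals from -0.38 to 0.74 and from -0.92 to 1.02.

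Most macrophage markers had higher levels in WT hosts. Of the 14, both WT libraries lay above both Rag2-/- libraries for 11, below for 2 (Fcgr1 and Ly6c2) and overlapped for 1 (Ccr2). Over all genes tested, 21.4% lay above and 23.1% below. Where 0.287% of all genes passed as higher, 1 of the 14 did. That was Apoe, the lipid carrier (203 and 281 CPM against 2032 and 1656 CPM, edgeR adjusted p = 0.0194), whereas Csf1r and Lyz2 did not pass (edgeR adjusted p = 0.0821 and 0.0516). Of 11 neutrophil markers found, 3 were tested, and both WT libraries lay above for 2 and below for 1. Of these 3, Csf3r passed as higher (22.5 and 12.3 CPM against 126 and 134 CPM, edgeR adjusted p = 0.035). The list summed to 33.8 to 38.7 CPM in Rag2-/- ISG+ DC and 145 to 167 CPM in WT ISG+ DC, where Csf3r alone made up most of it. S100a8, Elane, Ngp and Camp were at 0 in all 6 libraries. The part of these cells in the host differences of Clec genes was not tested.

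**Figure D4:**
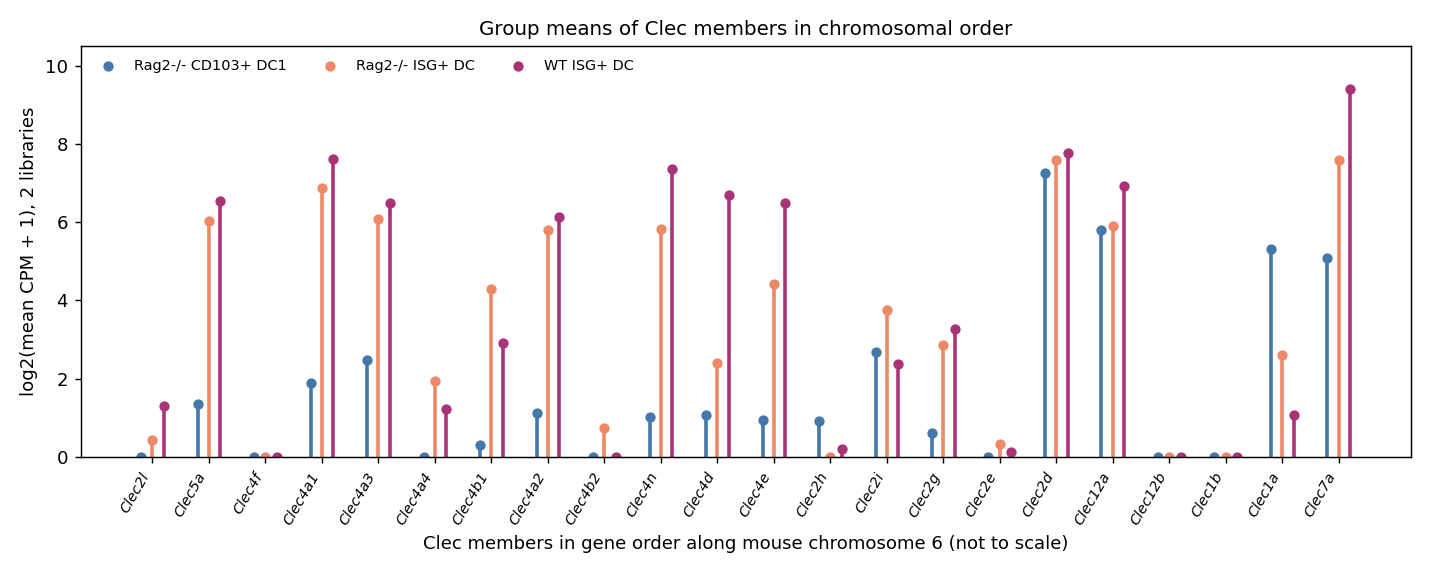
Group means of 2 libraries, as log2(CPM + 1), for the 22 members on mouse chromosome 6 in gene order (not to scale), 1 stem per group. For the 8 tested members from Clec4a1 to Clec4e the CD103+ DC1 stems lie below both ISG+ DC stems (Clec4b2, also in the run, is at 0 in CD103+ DC1 and in WT ISG+ DC), whereas Clec2d is near level and Clec1a is highest in CD103+ DC1. The share of all genes ordered like these 8 was not counted. A member can pass the count filter through the group where it is high.

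Position was not used to choose members. In the RefSeq annotation of GRCm38.p6, used for gene order alone, 22 of the 30 members lie on chromosome 6. A run of 9 members from Clec4a1 to Clec4e holds 8 tested genes. Clec4a1, Clec4b1, Clec4a2, Clec4n and Clec4e rose between the populations, Clec4a3, Clec4a4 and Clec4d did not pass, and Clec4b2 was too low to test. Over all genes tested 2.83% rose, and a part of position in these differences was not tested. In the other run, from Clec2h to Clec7a, Clec7a was the 1 member that rose. In the order of the members it comes last, after Clec12b, Clec1b and Clec1a.

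The signalling genes behind the activating receptors rose in part between the populations. Of 27 tested, 4 rose and 0 fell, beside 2.83% and 0.862% of all genes, with a median log2 fold change of 0.49. Syk was at 144 and 122 CPM in CD103+ DC1 and at 452 and 553 CPM in Rag2-/- ISG+ DC (3.77-fold, edgeR adjusted p = 0.00194). The adaptor Tyrobp rose 7.46-fold (edgeR adjusted p = 0.00104), the adaptor Fcer1g 3.74-fold (edgeR adjusted p = 0.0221) and the protease Malt1, which acts with Card9, 3.76-fold (edgeR adjusted p = 0.0138). Card9 was at 25.9 and 10.6 CPM against 73.2 and 72.5 CPM and just missed the threshold (edgeR adjusted p = 0.0501). Bcl10, which joins Card9 to Malt1, was at 13.8 and 19.0 CPM against 21.0 and 16 CPM (edgeR adjusted p = 0.934).

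Of the 8 genes behind the inhibitory receptors, 1 rose and 0 fell, beside the same 2.83% and 0.862% of all genes, with a median of 0.91. It was the adaptor Dok2 (5.12 and 0 CPM against 62.8 and 100 CPM, edgeR adjusted p = 0.0184). The phosphatase genes Ptpn6 (SHP-1) and Ptpn11 (SHP-2) were at 390 and 583 CPM against 725 and 724 CPM and at 145 and 150 CPM against 129 and 128 CPM (edgeR adjusted p = 0.313 and 0.843). Between hosts 0 of the 27 and 0 of the 8 passed, where 0.287% of all genes were higher and 0.265% lower, so counts of 0 in lists this short say little. Their medians were -0.03 and -0.16. Syk was at 631 and 737 CPM and Fcer1g at 411 and 385 CPM in WT ISG+ DC (edgeR adjusted p = 0.624 and 0.926 against Rag2-/- ISG+ DC).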

How the data were processed

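The authors deposited RSEM's estimated counts for each gene symbol and library without normalization, and 16.1% of the values were not whole. Per the labels' protocols, a stranded low-input total RNA kit was used, although the molecule is entered as polyA RNA. Per the submitters' processing notes, the authors used Bowtie 1.2.3 and RSEM 1.3.1 with build mm9. Which annotation, strand setting and read filters they used is not stated. RSEM shares ambiguous reads by a model, and without a stated strand setting overlapping genes cannot be told apart.

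After rounding, edgeR 4.0.16 (R 4.3.3) was applied. Its filterByExpr left 13223 of 23224 genes, and libraries were scaled by TMM. A single quasi-likelihood fit over all 6 libraries (3 residual degrees of freedom, prior 7.34) gave both comparisons. Two-sided p-values were adjusted over all tested genes by Benjamini and Hochberg's method, with a threshold of 0.05. CPM are rounded counts divided by the TMM-scaled library size. The standard error comes from the F statistic. The procedure was tested on simulated data. DESeq2 1.42.0 was an alternative, beside other scalings, filters and left-out libraries. No pairing could be taken from the replicate numbers, which the labels do not tie to a shared day or animal. Nothing in the labels gives a batch.

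Members and lists were chosen with earlier results of these data known. Named with full values were members called in either comparison, members at 1 CPM or more in both libraries of a group, and uncalled members with a group mean of at least 10 CPM. Clec4a4, the non-Clec genes and the promoter pair were chosen after values were seen. Intervals and limits cover counting error or library spread as stated. Promoter sequences are RefSeq windows of GRCm38.p6 matched by symbol, and transcripts are from GENCODE M21, so neither is from the build of the counts.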

Additional observations from a re-analysis of the deposited data

How the results depend on the processing

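Clec4a1, Clec4a2, Clec4n, Clec5a and Clec10a kept direction and call between the populations in all 12 alternatives, and Clec4e and Clec7a in 11. The count of members that rose, 8 in the reported fit, was 5 with the 4 compared libraries alone and 7 to 11 with 1 library left out. The count that fell, 0 in the reported fit, was 1 (Clec1a) with the replicate block, 1 with no low-count filter and 0 to 1 with 1 library left out. Between hosts, 0 members were called higher in the reported fit, 3 by DESeq2, 4 with no low-count filter, 4 with the 4 compared libraries alone, 2 with the replicate block (Clec4d and Clec7a) and 0 to 1 with 1 library left out (Clec4d without WT ISG+ DC replicate 1). Over all genes the 4-library fit called 275 higher and 169 lower between hosts, against 38 and 35. DESeq2 called 269 and 302, no low-count filter 268 and 287 and the replicate block 91 and 167. Between the populations the counts were 374 and 114 in the reported fit, 695 and 414 by DESeq2 and 671 and 416 with no low-count filter. They were 210 and 87 with the 4 libraries alone and 501 and 214 with the block. The causes were not tested. With 1 library left out, the lone library of its group is assumed to vary like the others.

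Directions turned for uncalled members alone. Between the populations Clec12a (0.10) ran from -0.076 to 0.33 with 1 library left out, below 0 when CD103+ DC1 replicate 3 or Rag2-/- ISG+ DC replicate 2 was missing (-0.076 and -0.0067). Clec16a (0.04) ran from -0.29 to 0.51, below 0 when replicate 3 of either group was missing (-0.29 and -0.10). Between hosts Clec16a (0.05) was at -0.027 by total counts, -0.15 with the block and -0.085 to 0.20 with 1 library left out, and Clec4a2 (0.35) at -0.43 with the block. With 1 library left out, Clec1a (-2.21) ran from -3.16 to 1.5, Clec2g (0.48) from -0.51 to 1.31, Clec4a4 (-1.07) from -8.14 to 4.01 and Clec5a (0.53) from -0.065 to 1.55. The summed Clec4a and Clec4b genes kept their call between the populations with any library left out, at 4.51 to 5.43, and stayed uncalled between hosts, at 0.42 to 0.53. At 0.5 and 5 CPM in place of 1, members reaching the minimum numbered 9 and 6 in CD103+ DC1, 15 and 13 in Rag2-/- ISG+ DC and 16 and 13 in WT ISG+ DC. Replicate numbers 2 and 3 are shared by both Rag2-/- groups, but their deviations were uncorrelated over genes (r = -0.0024), so the block is no evidence of pairing. It left 1 residual degree of freedom. Replicate number 1 occurs in WT ISG+ DC alone. Between hosts the block's difference, for Clec4d and Clec7a too, therefore used WT ISG+ DC replicate 2 alone on the WT side.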

Other observations

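C-type lectins without a Clec symbol moved between the populations as well, in both directions. Of 23 tested, 4 rose and 1 fell in ISG+ DC of hosts labelled Rag2-/-, with a median log2 fold change of 1.36, where 2.83% and 0.862% of all genes tested rose and fell. Mrc1, the mannose receptor, was at 70.0 and 127 CPM in CD103+ DC1, 488 and 795 CPM in Rag2-/- ISG+ DC and 1220 and 1223 CPM in WT ISG+ DC (edgeR adjusted p = 0.00173 between populations). Mgl2, the near relative of Clec10a that encodes CD301b, was at 2.26 and 14.6 CPM, 242 and 432 CPM, and 539 and 423 CPM in these groups (edgeR adjusted p = 0.00232). Cd209a was at 1.93 and 0 CPM, 160 and 110 CPM, and 50.6 and 87.3 CPM (edgeR adjusted p = 0.00176). Cd72, a receptor for CD100, was at 13 and 13.4 CPM, 351 and 292 CPM, and 142 and 133 CPM (edgeR adjusted p = 0.000109).

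Ly75, which encodes the endocytic receptor DEC-205, fell, from 250 and 214 CPM in CD103+ DC1 to 40.5 and 32.0 CPM in Rag2-/- ISG+ DC (edgeR adjusted p = 0.027). Between hosts none of the 23 passed by edgeR, where 0.287% of all genes were higher and 0.265% lower. Cd72 came nearest (edgeR adjusted p = 0.0786). It was lower in both WT libraries, as were 23.1% of all genes tested. Pdpn, whose product is the ligand of the silent member Clec1b, was at 14.0 and 14.2 CPM in CD103+ DC1, 14.6 and 22.2 CPM in Rag2-/- ISG+ DC and 63.0 and 104 CPM in WT ISG+ DC (edgeR adjusted p = 0.0805 between hosts).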
